A study of Mus musculus with 2 samples.

Results

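The 8 genes described here are peptides, receptors and a protease by which AgRP neurons are recognised: Agrp, Npy, Ghsr, Lepr, Mc3r, Npy2r, Acvr1c and Corin. Their members on the array were the probe sets annotated to 1 of these symbols and to no other gene, which gave 121 of 318760 probe sets with a single symbol. AgRP neurons were collected by FACS (sorting of labelled single cells) from 2 kinds of mice and their RNA was measured on exon-level microarrays, with 1 array per genotype. The 1 group was FoxO1 KO and the other FoxO1 heterozygous KO, which stands as the control, so both carried at least 1 disrupted FoxO1 copy. Mice of both groups were of mixed genetic background, with free access to food and water, and age- and sex-matched littermates were used. The promoter or Cre line behind the knockout, the label used for sorting, the age and the number of animals behind each array were not given in the sources used here.

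AgRP neurons of the arcuate nucleus drive feeding by releasing agouti-related peptide, an inverse agonist of melanocortin receptors, together with neuropeptide Y and GABA. The stomach hormone ghrelin excites them through Ghsr, and leptin from fat restrains them through Lepr. FoxO1 is a transcription factor that insulin and leptin signalling push out of the nucleus, and it is known as an activator of the Agrp and Npy genes.

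Values are RMA values on the log2 scale, and every difference is KO minus heterozygous KO, so that 1 is 2-fold. With a single array per genotype no test was possible. An SD beside a gene is the SD over its probe sets, which measures how far they disagree on 1 pair of arrays and not the spread between mice. A gene's difference is the median over its probe sets whose mean over both arrays reached 5.86, the median of all probe sets, called the floor below; 106 of the 121 member probe sets did. To be evaluated, a gene needed at least 3 of them. A gene counted as at least 2-fold different where its difference reached 1 in size and at least 75% of these probe sets went that way.

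The targeted gene, Foxo1, read 7.46 for KO and 7.98 for heterozygous KO, a difference of -0.48 (SD 0.53), with 8 of 8 probe sets at or above the floor lower and a ninth, under the floor, higher at 5.75 against 4.79. Which part of Foxo1 was deleted is unknown here, so its probe sets do not check the genotype.

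Of the 8 genes 0 were at least 2-fold higher or lower, against 1.13% higher and 1.12% lower among all 16639 evaluated genes. Of the 8, 7 stood above 0 and Ghsr stood below, with a median over the 8 of 0.30. Among all evaluated genes 34.8% stood above 0, with a median of -0.11. Read probe set by probe set, 83 of the 121 were higher on the KO array, or 68.6%, against 43.7% of all single-symbol probe sets. Genes with many probe sets weigh most in this share: Lepr had 26 of 33 higher, Acvr1c 22 of 29 and Corin 15 of 29. A 2-fold or larger excess on the KO array was seen in 15 of the 121 (12.4%, against 8.52% of all), and a 2-fold or larger deficit in 3 (2.48%, against 9.80%). Lepr held 10 of these 15, so outside Lepr large differences were few. The plot of levels by array and the plot of differences by gene show these values.

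**Figure D1:**
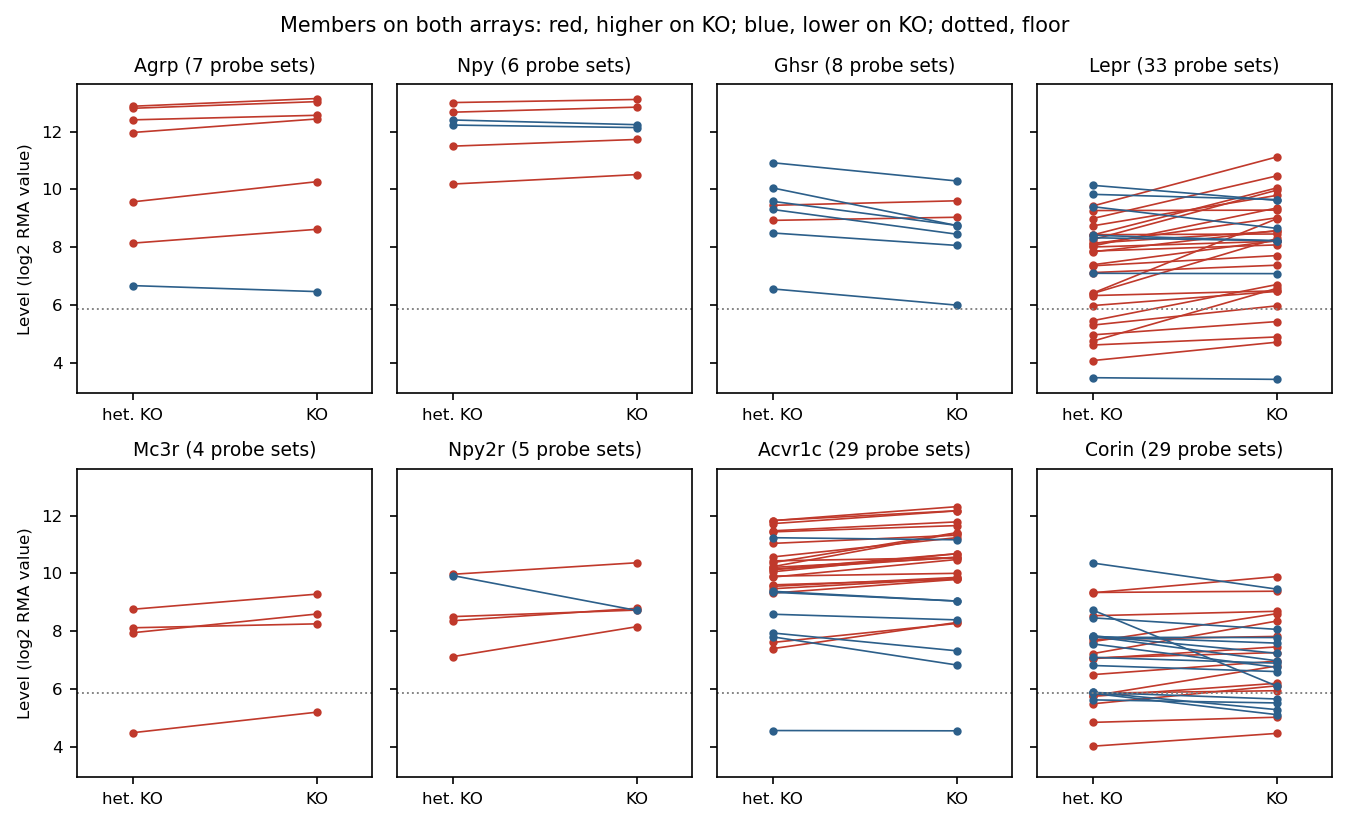
Log2 RMA level of each probe set on the heterozygous KO array (left point) and on KO (right point), joined by a line, for the 8 genes; the dotted line is the floor of 5.86. Lines are nearly flat for Npy, slope upward for most Agrp, Lepr, Mc3r and Acvr1c probe sets, slope downward for 6 of 8 Ghsr probe sets, and cross for Corin.

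**Figure D2:**
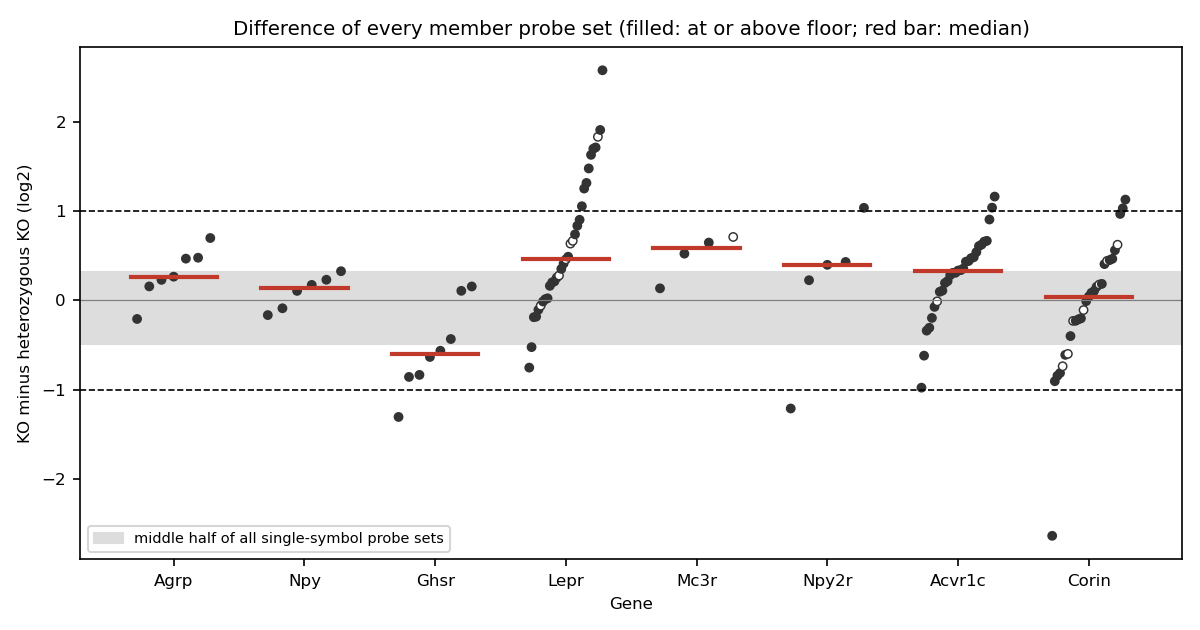
KO minus heterozygous KO difference (log2) of all 121 member probe sets by gene, with the median over all probe sets of a gene as a red bar, the middle range between quartiles of all single-symbol probe sets in grey (-0.48 to 0.32) and 2-fold as dashed lines. Lepr reaches 2.57, Corin spans -2.63 to 1.13, and Agrp and Npy stay within the 2-fold lines.

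The peptides came first, since they define the sorted cells. Of the 7 Agrp probe sets 6 lay above the 75th percentile of both arrays (7.42 on each), as did all 6 of Npy, so both defining transcripts were bright in both samples. Brightness also depends on probe sequence, so that bright and dim below describe array readings and give no order of transcript amounts.

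Agrp read 12.44 for KO and 11.97 for heterozygous KO, a difference of 0.27 or 1.20-fold (SD 0.29, 6 of 7 probe sets higher). Its brightest probe set, 5288632, read 13.14 on KO and 12.88 on heterozygous KO. Probe set 4367899 read 13.04 against 12.80 and probe set 5134970 read 12.56 against 12.41. These 3 were the brightest and were higher for KO by 0.16 to 0.27. Probe set 5266301 read 12.44 against 11.97, probe set 4481628 read 10.27 against 9.57 and probe set 4891800 read 8.62 against 8.14. The dimmest, 5515485, read 6.47 against 6.67 and was the only one of the 7 that was lower. The largest difference, 0.70 for probe set 4481628, was 1.62-fold, so no Agrp probe set differed by 2-fold.

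Npy differed by 0.14 or 1.10-fold (SD 0.19 over 6 probe sets), the smallest SD among the 8 genes. Its probe sets divided in direction. Probe set 5317652 read 10.51 on KO and 10.19 on heterozygous KO, the largest difference at 0.33. Also higher were 5241726 at 11.73 against 11.50, 4855603 at 12.84 against 12.67, and 4556500 at 13.11 against 13.00. Probe set 4330077 at 12.14 against 12.22 and probe set 4534026 at 12.24 against 12.40 were lower. Because medians were taken separately, the gene's level was lower on the KO array, 12.19 against 12.31, while the median difference was above 0; the sign of the Npy value therefore rests on which summary is read. Differences as near to that of Npy as 0.1 were found in 2568 other evaluated genes, and in 1616 for Agrp.

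Promoters of the members were read from RefSeq (build GRCm38.p6), because FoxO1, the gene disrupted here, binds DNA at known short motifs. The 250 bases before the annotated start were used, and 7 of the 8 genes, all but Agrp, had an entry, with 9 starts in all. Motifs searched on both strands were the FoxO core GTAAACA, the insulin response motif CAAAACAA, which FoxO proteins also bind, and the STAT motif TTCNNNGAA, bound by the factors that leptin activates. GTAAACA was in 0 of the 9 member windows and in 3.17% of all 32851 windows, and TTCNNNGAA in 0 of the 9 and 7.02% of all. CAAAACAA was in 1 of the 9, at the downstream of the 2 Lepr starts, and in 2.21% of all windows. The Npy window is shown as that of a defining peptide with none of the motifs, and the Lepr window as the one with a match, in capitals; its first base lies 114 bases before the start. A match is a description of letters and shows no binding. With 9 windows of 250 bases and shares this low, few or no matches would be found for most sets of genes. A window without a motif, as for Npy, therefore does not show that the gene lacks a site.
Npy, chr6:49822460-49822709, plus strand: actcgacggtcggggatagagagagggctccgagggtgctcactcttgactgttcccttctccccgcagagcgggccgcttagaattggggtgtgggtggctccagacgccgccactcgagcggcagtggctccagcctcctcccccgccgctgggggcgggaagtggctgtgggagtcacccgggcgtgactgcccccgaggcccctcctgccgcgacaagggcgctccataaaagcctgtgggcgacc
Lepr, chr4:101717656-101717905, plus strand: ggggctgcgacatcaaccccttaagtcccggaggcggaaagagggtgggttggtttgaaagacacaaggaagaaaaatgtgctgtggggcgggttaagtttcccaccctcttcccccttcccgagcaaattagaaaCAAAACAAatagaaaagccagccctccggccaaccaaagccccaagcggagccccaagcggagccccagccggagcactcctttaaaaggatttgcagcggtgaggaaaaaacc

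Lepr, the leptin receptor, held most of the large probe set differences of the members. It was measured by 33 probe sets, of which 26 were higher on the KO array and 7 lower. At least 2-fold higher were 10 of them, or 30.3%, against 8.52% of all single-symbol probe sets, and 0 were at least 2-fold lower, against 9.80%. The gene summary was 8.56 on KO and 8.12 on heterozygous KO, a difference of 0.41 or 1.33-fold (SD 0.82, 21 of 27 probe sets at or above the floor higher).

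The largest Lepr difference was in probe set 5205658, at 8.99 on KO and 6.41 on heterozygous KO, or 5.95-fold. Probe set 5420535 read 8.30 against 6.40. Probe set 4527991 read 6.58 against 4.75, with a mean under the floor. In these 3 the heterozygous KO array was dim or near the middle of all probe sets. The next 4 were bright on both arrays. Probe set 4828712 read 9.97 against 8.26 and probe set 4524740 read 11.12 against 9.43. Probe set 4746613 read 10.05 against 8.42 and probe set 5276460 read 10.47 against 8.99. These 4 differed by 1.48 to 1.71, and the brightest Lepr reading of either array, 11.12, was among them. Probe sets 4665797 (9.36 against 8.04), 4772550 (6.71 against 5.46) and 4354943 (9.79 against 8.74) made up the 10.

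The other 23 Lepr probe sets differed by less than 2-fold. Their median difference was 0.21, with 16 higher and 7 lower, and they ran from -0.75 to 0.90. Their heterozygous KO values reached 10.14 (median 7.84) and those of the 10 reached 9.43 (median 8.15). On the KO array the 23 reached 9.65 (median 8.21) and the 10 reached 11.12 (median 9.58). The 10 were set apart by the difference itself, so their higher KO values follow in part from that split. Probe set 5555082 read 9.62 on KO and 10.14 on heterozygous KO, and probe set 4376593 read 8.65 against 9.40; both were bright and lower. Probe set 4890645 read 9.28 against 9.27. Across the 33 probe sets the difference had almost no relation to mean level (Pearson r = 0.05, across probe sets of 1 gene on 2 arrays, given as a description). The Lepr gene makes several receptor forms that share their outer part and differ at the inner end, and the exon that each probe set lies in was not given in the sources used here. A dumbbell plot of Lepr shows the 10 and the 23.

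**Figure D3:**
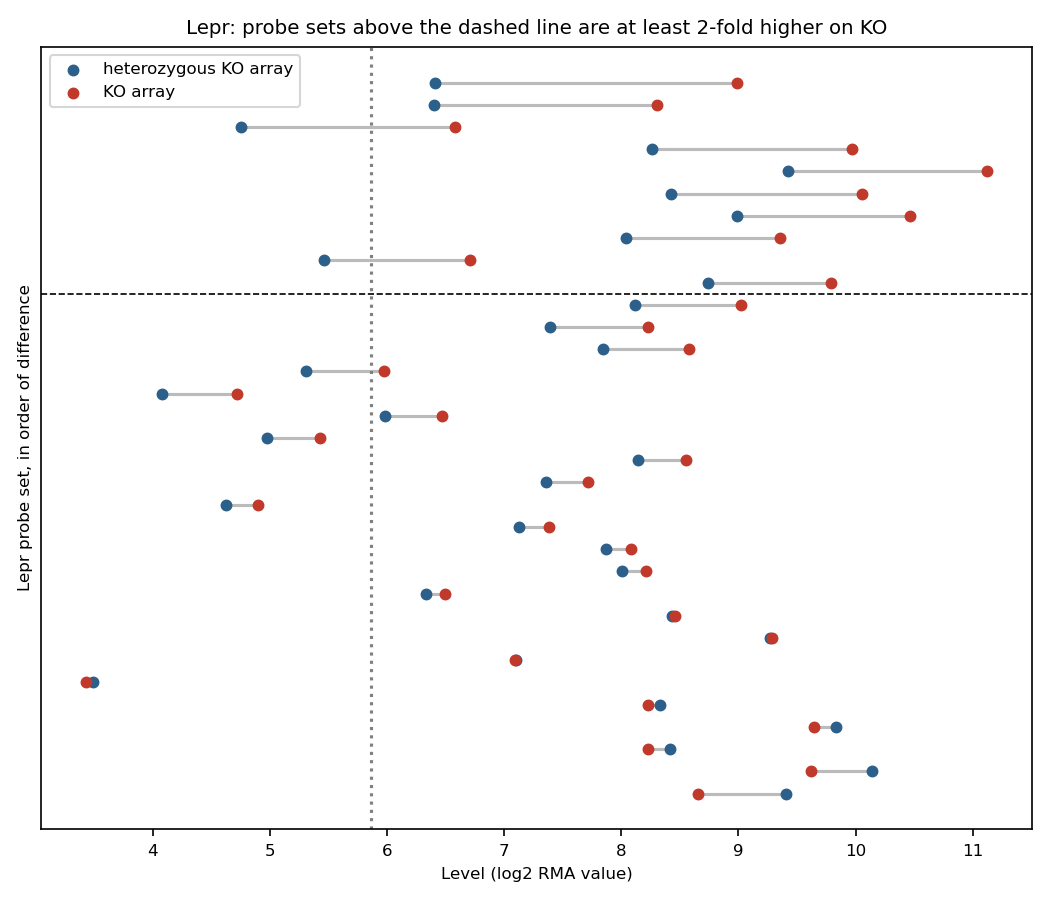
Log2 RMA level of the 33 Lepr probe sets on the heterozygous KO array (blue) and KO array (red), sorted by their difference; the dotted line is the floor of 5.86 and the 10 above the dashed line were at least 2-fold higher on KO. Differences run from -0.75 at the bottom to 2.57 at the top.

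A share of 2-fold higher probe sets as large as that of Lepr was found in 178 of the 5406 other genes with at least 20 probe sets, or 3.29%, where the median share was 6.90%. Its SD over all 33 probe sets, 0.79, was near the 0.83 that was the median SD of such genes. In Lepr the 2-fold differences all fell on 1 side, with 10 higher and 0 lower, at a common spread.

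Ghsr, the ghrelin receptor, was the 1 member lower on the KO array. It stood at 8.75 on KO and 9.38 on heterozygous KO, a difference of -0.60 or 1.51-fold (SD 0.49, 6 of 8 probe sets lower). Probe set 4467040 was lowest in difference, at 8.75 against 10.05, the only Ghsr probe set at least 2-fold lower. Probe sets 4836120 (8.45 against 9.31) and 5414524 (8.76 against 9.59) followed. The brightest, 5256913, read 10.29 against 10.92. These 4 were bright on both arrays. Lower too were 4723211, the dimmest, by a difference of -0.56, and 4907934 at 8.06 against 8.49. Probe set 4314612 at 9.61 against 9.45 and probe set 5183615 at 9.04 against 8.93 were higher, by 0.16 and 0.11. Among all evaluated genes 5.94% had a lower difference than Ghsr. With a 1.5-fold rule in place of 2-fold, Ghsr was the 1 member called, against a background of 4.90% of genes lower and 3.28% higher. Its difference fell short of 1.5-fold with the mean over probe sets (-0.54), with the trend on level removed (-0.55) and with the arrays centred (-0.52).

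Mc3r, a melanocortin receptor found on AgRP neurons themselves, had 4 probe sets, all higher on the KO array. Probe set 5616947 read 8.60 on KO and 7.95 on heterozygous KO, probe set 4909413 read 9.28 against 8.76, and probe set 5569498 read 8.26 against 8.12. The fourth, 4752249, read 5.20 against 4.49 and lay under the floor on both arrays. The 3 at or above the floor gave a difference of 0.52 or 1.44-fold (SD 0.27), the highest of the 8 genes by the median (with the mean over probe sets Mc3r was at 0.44 and Lepr at 0.65), and 5.69% of evaluated genes had a higher one. No probe set reached 2-fold, and the value rests on few probe sets.

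Npy2r, the receptor by which neuropeptide Y restrains its own release, differed by 0.40 or 1.32-fold (SD 0.83 over 5 probe sets), with 8.73 on KO and 8.51 on heterozygous KO. Probe set 5281293 read 8.16 against 7.12 and was at least 2-fold higher. Probe sets 5020938 (8.79 against 8.36), 5029895 (10.37 against 9.97) and 4310562 (8.73 against 8.51) were higher by 0.43, 0.40 and 0.23. Probe set 4878155 went the other way at 8.72 against 9.93, 2.31-fold lower. Thus 1 bright probe set went against the other 4, and the mean over probe sets was 0.18 where the median was 0.40.

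Acvr1c encodes ALK7, a type I receptor of the activin and nodal group of ligands. It stood at 10.54 on KO and 10.09 on heterozygous KO, a difference of 0.34 or 1.26-fold (SD 0.47, 22 of 28 probe sets higher). Of its 29 probe sets 25 lay above the 75th percentile of both arrays. The probe sets ran from 4.56 to 12.31 on KO and from 4.57 to 11.83 on heterozygous KO, and the 2 arrays ordered them alike (Pearson r = 0.97 across probe sets, a description). Differences had quartiles of 0.10 and 0.54, and tended to be higher in brighter probe sets (Pearson r = 0.41 with mean level, a description). Probe sets 4763756 (11.39 against 10.23) and 5165715 (11.41 against 10.37) were at least 2-fold higher. The lowest difference was -0.97 for probe set 4965807, at 6.83 against 7.81, and the 1 probe set under the floor read 4.56 against 4.57. Among genes with at least 20 probe sets, 91.4% had a larger SD than its 0.47. These genes were of all levels, and Acvr1c was bright. Over all single-symbol probe sets the SD of the differences was 1.03 from the floor to a mean of 8 and 0.58 at 10 or more. No comparison with genes of like level was made.

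Corin encodes a membrane serine protease that activates the atrial natriuretic peptide precursor and also acts in the agouti pathway of the skin. Its 29 probe sets divided evenly, with 15 higher and 14 lower, and the difference was 0.06 (SD 0.81 over 22 probe sets). Levels were 7.36 on KO and 7.68 on heterozygous KO, so here too the gap of the levels and the median difference had opposite signs. KO values ran from 4.47 to 9.89 with a median of 6.97, and heterozygous KO values from 4.03 to 10.36 with a median of 7.10. Probe set 4567936 stood apart at 6.11 against 8.74, 6.19-fold lower. The bright probe set 4842026 read 9.46 against 10.36, while 4906022 read 9.89 against 9.33 and 4676900 read 9.39 against 9.34. Probe sets 4353463 (8.35 against 7.23) and 5539951 (6.80 against 5.77) were at least 2-fold higher. No direction can be read for Corin: its sign was below 0 under 3 of 8 alternatives.

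The share of large differences varied with level over the whole array, so the members were also read by level. At a mean of 10 or more, 3.30% of all single-symbol probe sets were 2-fold or more higher and 5.62% lower by as much. Of the 29 member probe sets there, 3 were higher by that much and 0 lower, and 25 stood above 0 (43.0% of all). From 8 to 10, 5 of 44 were at least 2-fold higher and 2 lower, against 8.81% and 11.0%, and 29 stood above 0 (41.4% of all). From the floor to 8 the counts were 6 of 33 higher and 1 lower, against 10.6% and 11.9%, with 20 above 0 (43.2% of all). Under the floor they were 1 of 15 higher and 0 lower, against 7.01% and 7.36%, with 9 above 0 (46.1% of all). Member probe sets of a gene share a transcript and are not replicates of each other. Single genes also weighed heavily in these bands. Most member probe sets at 10 or more belonged to Acvr1c, Npy and Agrp. All of those at least 2-fold higher from 8 to 10 belonged to Lepr.

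Genes that work with the members were described from 8 lists, which held 94 different evaluated genes besides the members. Of these, 0 were at least 2-fold higher, 1 was at least 2-fold lower, 24 stood above 0 and 70 below, with a median of -0.16, beside -0.11 over all evaluated genes. The members' partners thus lay mostly on the other side of 0 from the members, as did 65.2% of all evaluated genes. The strip plot of the lists shows this.

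**Figure D4:**
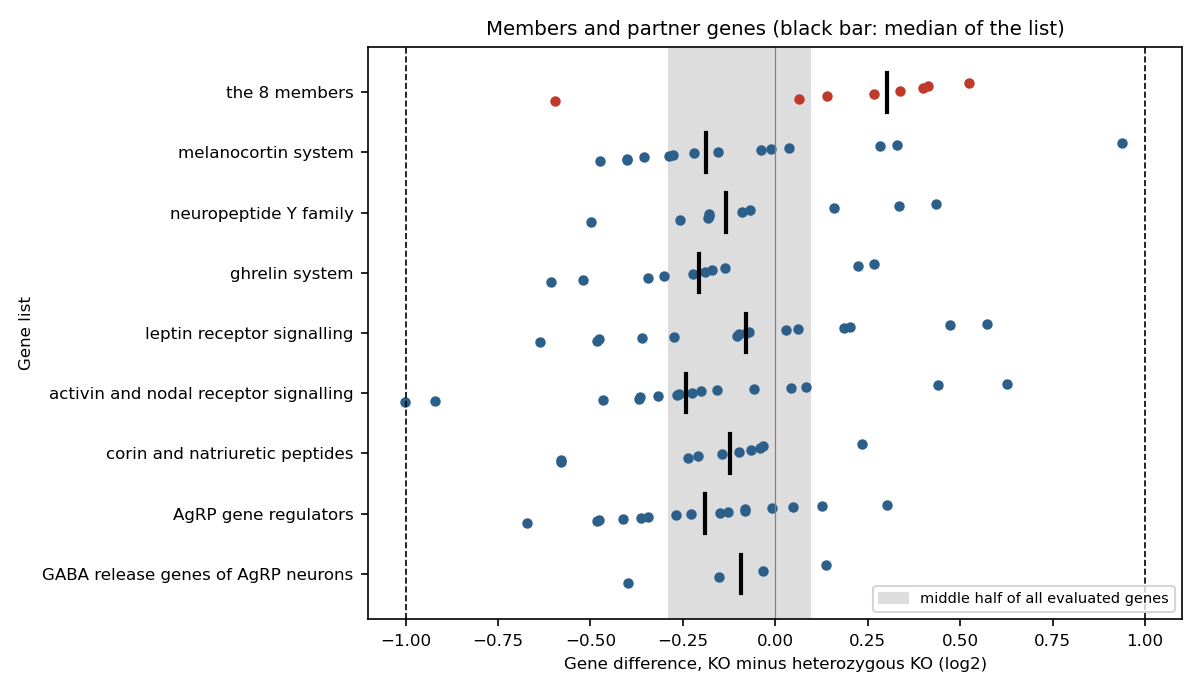
Gene differences, KO minus heterozygous KO (log2), of the 8 members (red) and of the evaluated genes of 8 partner lists (blue), with list medians as black bars, the range between quartiles of all evaluated genes in grey (-0.29 to 0.09) and 2-fold as dashed lines. The members' median is 0.30 and the list medians run from -0.24 to -0.08.

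Among 14 evaluated genes of the melanocortin system 4 stood above 0 and none passed the 2-fold rule (median -0.19). Pomc, the precursor of the melanocortin agonists, differed by 0.28 (SD 0.46; 3 of 4 probe sets were higher), and its brightest probe set read 10.73 on KO and 10.09 on heterozygous KO. Cartpt, a peptide of POMC neurons, was at 0.33 with 5 of 5 probe sets higher. The highest gene was Prcp, an enzyme that breaks down alpha-MSH, at 0.94 (SD 1.64, 9 of 13 higher) or 0.43 with no floor, and the lowest the receptor Mc1r at -0.47. Asip and Mc4r were not evaluated.

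The list of the neuropeptide Y family also held peptidase and peptide-processing genes outside the family: Dpp4, Cpe, Pcsk1, Pcsk2 and Pam. Of its 10 evaluated genes none passed the rule (median -0.13), and 3 stood above 0, with Pcsk1 at 0.16 among them. The postsynaptic receptors Npy1r and Npy5r were among these 3, at 0.44 (SD 1.80, 5 of 6 probe sets higher) and 0.34 (SD 0.87, 3 of 4). The separate levels of Npy5r were lower on KO, 6.90 against 6.98, as were those of Pcsk1, 9.07 against 9.45. The sign of both therefore rests on which summary is read. Npy1r held 1 probe set, 5429012, at 8.04 on KO and 3.87 on heterozygous KO, and another, 5591770, at 8.21 against 9.38, so its probe sets disagreed widely. The lowest was Ppyr1, the older symbol of the receptor gene Npy4r, at -0.50.

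The 10 genes of the ghrelin system had a median of -0.21, with 2 above 0 and none past the rule. Ghrl, the ghrelin gene itself, was lowest at -0.61 (SD 0.69, 4 of 4 probe sets lower) or -0.37 with no floor, the same side as its receptor Ghsr. Prkaa1, a catalytic subunit of the energy sensor AMPK, was highest at 0.27, but its probe sets disagreed widely (SD 2.09, 5 of 9 higher). With no floor the other catalytic subunit, Prkaa2, was highest at 0.52.

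Leptin receptor signalling had 15 evaluated genes, 6 above 0 and none past the rule (median -0.08, and 0.01 with the floor at the 75th percentile). Leprot, which lies on the same chromosome as Lepr and encodes a protein that limits the receptor at the cell surface, was highest at 0.57 (SD 0.76, 6 of 6 probe sets higher). Its probe sets 5002657 (6.98 on heterozygous KO, a difference of 2.01) and 4790342 (10.57 against 9.49) were at least 2-fold higher, while 5195570 read 10.38 against 10.37. The lowest was Irs2, an adaptor of insulin receptor signalling, at -0.64. Stat3, the main transducer of leptin, stood at -0.48 (9 of 34 probe sets higher).

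Activin and nodal receptor signalling had 16 evaluated genes and a median of -0.24, with 4 above 0. With no floor the median was -0.04, with 6 of 17 above 0. Tgfbr1, the type I receptor of TGF-beta, was the 1 gene of all lists past the rule, just beyond 2-fold lower (SD 1.69, 6 of 7 probe sets lower, levels of 6.05 against 8.31). With no floor it stood at -0.46 and did not pass. The type I receptor Acvr1b, which shares ligands with Acvr1c, was at -0.26 (SD 0.97, 3 of 7 higher), or -0.03 with no floor. The type II receptors Acvr2a and Acvr2b, with which Acvr1b and Acvr1c pair, were at 0.44 (10 of 18 higher) and -0.20.

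Of 10 genes around Corin and the natriuretic peptides, 1 stood above 0 (median -0.12, none past the rule). The count above 0 was 4 with the arrays centred (median -0.05) and 3 with the trend on level removed. Above 0 in the main summary was Nppa, the substrate of Corin, at 0.23 (SD 0.74, 3 of 4 probe sets higher), or -0.19 with no floor. The receptor Npr2 was lowest at -0.58.

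Known regulators of Agrp had a median of -0.19 over 16 genes, 3 of them above 0 and none past the rule. Foxo1, given above, was 1 of the 13 below 0. Tbx3, a transcription factor of arcuate neuron identity, was highest at 0.30 (15 of 19 higher), and Dlx1 lowest at -0.67. With no floor Dlx1 stood at -0.34, and Stat3 was lowest at -0.48. Bsx, which acts with FoxO1 on Agrp and Npy, was at -0.36 (5 of 6 lower). The 4 evaluated genes of GABA synthesis and release had a median of -0.09, with Gad2 at 0.14 and the vesicular transporter Slc32a1 at -0.40.

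Markers of other cell types were read in the same way. Among all evaluated genes 65.2% stood below 0 and 1.12% were at least 2-fold lower, with a median of -0.11. The astrocyte, microglial and POMC neuron lists lay near these values, so their counts below 0 set them apart little from other genes. All 10 evaluated genes of the oligodendrocyte lineage stood below 0, with 5 at least 2-fold lower and a median difference of -0.93. Their summed level on the linear scale was 1853 for KO and 4297 for heterozygous KO, and none was under the floor on both. Such sums are led by the brightest genes and use levels taken as separate medians, so the median difference is given beside each. The 2 markers of glutamatergic neurons summed to 129 for KO and 686 for heterozygous KO, nearly all of the gap from Slc17a6 (5.40 against 9.11), whose difference was -4.29, or -1.15 with no floor; Slc17a7 differed by -0.15. Of 10 markers of other peptide neurons 9 stood below 0, with 2 at least 2-fold lower, a median of -0.28 and sums of 2705 and 4498. The 5 endothelial and pericyte markers were all below 0 with none past the rule, a median of -0.42 and sums of 544 and 1002. The 5 tanycyte and ependymal markers were all below 0 too, with none past the rule, a median of -0.23 and sums of 1276 and 1633. Of 6 astrocyte markers 4 stood below 0 (median -0.17, sums of 1058 and 1061). Of 4 microglial markers 3 stood below 0 (median -0.07), although their sums of 635 and 582 went the other way. The 5 genes listed for POMC neurons were not all particular to these cells, and they divided. Pomc (0.28) and Cartpt (0.33) stood above 0. Tac2 (-0.04), Nr5a1 (-0.015) and Prdm12 (-0.004) stood just below, which put the median near 0. The sums of the 5 genes, 1335 and 1057, were led by Cartpt (9.67 against 8.97). Of the 11 AgRP neuron markers, which include the 8 members, 8 stood above 0 and 3 below, with a median of 0.26. Their sums of 15014 on KO and 13654 on heterozygous KO were led by Agrp and Npy and give no share of AgRP neurons. The part of these other cells in the members' differences was not tested. In sorted samples, fewer cells of a type and less RNA per cell cannot be told apart.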

How the data were processed

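RNA of sorted AgRP neurons was measured on 1 array per genotype; groups were taken from the genotype labels. The deposited values are log2 values per probe set, with the scale taken from the values; per the submitters' processing notes they were made with RMA and Partek, with no versions. Aligning both arrays to 1 distribution, as RMA usually does, hides a change in total RNA. Centring, genome build and annotation were not given in the sources used here. Of 1235936 probe sets, 318760 had 1 symbol in the platform annotation; 0 probe sets named a member together with another gene. Values ran from 2.53 to 14.13, with medians of 5.85 on both arrays. Precision is limited by having only 2 arrays.

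The summaries are those defined in the report. Members and lists were chosen with earlier results of these data known. Named are the members, list genes past the 2-fold rule or else the highest and lowest, and fixed partners (ligands, receptors). Cartpt, Stat3, Bsx, Pcsk1 and the genes with probe sets shown were chosen after their values were seen. List symbols were matched directly or through RefSeq synonyms. Alternatives were a floor at the 75th percentile or none, means in place of medians over probe sets, removal of the trend on level, repeated quantile normalisation, centring, probe sets with several symbols, a 1.5-fold rule, no agreement rule, 1 probe set per gene and the mean over list members. The summary script was checked and tested on simulated data. Python 3.11.15, numpy 2.4.6, pandas 2.3.3, statsmodels 0.14.6 and matplotlib 3.10.9 were used.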

Additional observations from a re-analysis of the deposited data

How the results depend on the processing

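No paired analysis was possible because each genotype has 1 array. Under 8 alternatives per gene, each member other than Corin kept its sign: Agrp ran from 0.23 to 0.37, Npy from 0.10 to 0.21, Ghsr from -0.63 to -0.52, Mc3r from 0.44 to 0.60, Lepr from 0.38 to 0.65, Acvr1c from 0.29 to 0.41 and Npy2r from 0.18 to 0.47, while Corin ran from -0.06 to 0.14. Not all of these alternatives could move a value. Adding probe sets with several symbols changed no member, since 0 probe sets named a member with another gene. Having no floor could not change Agrp, Npy, Ghsr or Npy2r, which had 0 probe sets under it. Asking for both arrays at or above the floor left Agrp, Npy, Ghsr, Mc3r, Acvr1c and Npy2r with the same probe sets. The floor at the 75th percentile likewise removed none from Npy, Mc3r or Npy2r. The gap of the separate Npy levels, which was below 0, was not among the alternatives. Lepr kept 10 probe sets at least 2-fold higher with the trend removed, quantiles repeated or arrays centred. The median over all genes moved by at most 0.07. The 188 genes higher and 186 lower became 545 and 815 with a 1.5-fold rule, where Ghsr was the 1 member lower, and 338 and 329 with at least 1 probe set per gene. They became 118 and 113 with both arrays at or above the floor, an alternative chosen after seeing the data, since a probe set dim on 1 array is then left out. Of 204 values under alternatives, the other 197 stayed within the SD over probe sets or genes, or within 1.5 times for counts. This limit is wide. For Agrp, Npy, Corin, Lepr, Acvr1c and Npy2r the SD over probe sets was larger than the difference itself. A value can stay within it and change sign, as Corin did under 3 alternatives and the median of leptin receptor signalling under 1. The 197 therefore does not measure how firm the differences are. Dim probe sets limit Corin and Lepr, with 7 of 29 and 6 of 33 under the floor.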
